A study of Mus musculus with 6 samples.

Results

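The 43 genes described here encode the machinery that copies DNA in S phase and the factors that start it, from origin recognition to nucleotide supply. They were taken by gene symbol from a deposited table of 43346 genes, and all 43 had a row in that table. Before S phase, the origin recognition complex, CDC6 and CDT1 load the ring-shaped MCM2 to MCM7 helicase onto origins. CDC45 and the GINS complex then activate the helicase, primase and the polymerases synthesise both strands, the PCNA clamp and its RFC loader hold the polymerases on DNA, and RPA covers exposed single strands. In adult liver most hepatocytes are quiescent, and E2F transcription factors together with cyclin E are known to switch this set of genes on when cells enter the cycle.

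The 6 RNA sequencing libraries came from mouse liver tumours. The tumours had been induced with DEN (diethylnitrosamine), a carcinogen that hepatocytes activate. Of these, 3 carried wild-type Gli1 (WT) and 3 a Gli1 knockout (KO). GLI1 is a transcription factor through which Hedgehog signalling acts on its target genes. By the labels both genotypes overexpressed SULF2, an extracellular sulfatase that edits heparan sulfate, and no tumour labelled as free of that overexpression was analysed here. The labels call the mouse line Sulf2-TTR. Ttr is the symbol of transthyretin, a protein made by hepatocytes, but the labels do not name the promoter, the age or sex of the mice, or the part of Gli1 that was removed. Nor do they state whether the tumours of a genotype came from different animals, and the p-values below therefore reflect only the spread among these 3 libraries per genotype. Values listed for a genotype follow the replicate numbers 1, 2 and 3 of the labels.

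Gli1 was counted at 10, 20 and 7 reads in WT and at 4, 3 and 3 reads in KO. Every KO library lay under every WT library, with a log2 fold change of -2.24 ± 0.65 (SE) and an unadjusted p of 0.0112 in edgeR's quasi-likelihood test. Gli1 did not pass the low-count filter and was added back for this value, and its FDR was 0.9997. Library totals ranged from 75205624 to 132979502 counted reads, and no pair of libraries held identical counts. Sulf2 stood at 76.4, 11.6 and 5.33 CPM (read counts scaled to library size with TMM factors) in WT and 164.5, 2.63 and 10.2 CPM in KO. It was high in replicate 1 of each genotype and much lower in the other 4 libraries, and with no tumour of unaltered SULF2 these counts do not check the label. Reads of albumin, a product of hepatocytes, made up 12.6 to 15.1% of each library.

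The replication genes were high in 1 tumour. KO replicate 3 held the highest CPM of the 6 libraries for 38 of the 43 genes (88.4%), where 15.5% of all 18359 genes tested were highest in that library. Summed over the 43 genes, the unscaled CPM was 305, 306 and 226 in WT and 322, 243 and 739 in KO. Their geometric mean was 4.29, 3.19 and 3.73 CPM in WT and 4.56, 3.56 and 11.8 CPM in KO. KO replicates 1 and 2 lay within or just above the WT range, and only KO replicate 3 stood apart. In bulk tumour RNA, more cells in S phase and more of these transcripts per cell cannot be told apart.

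**Figure D1:**
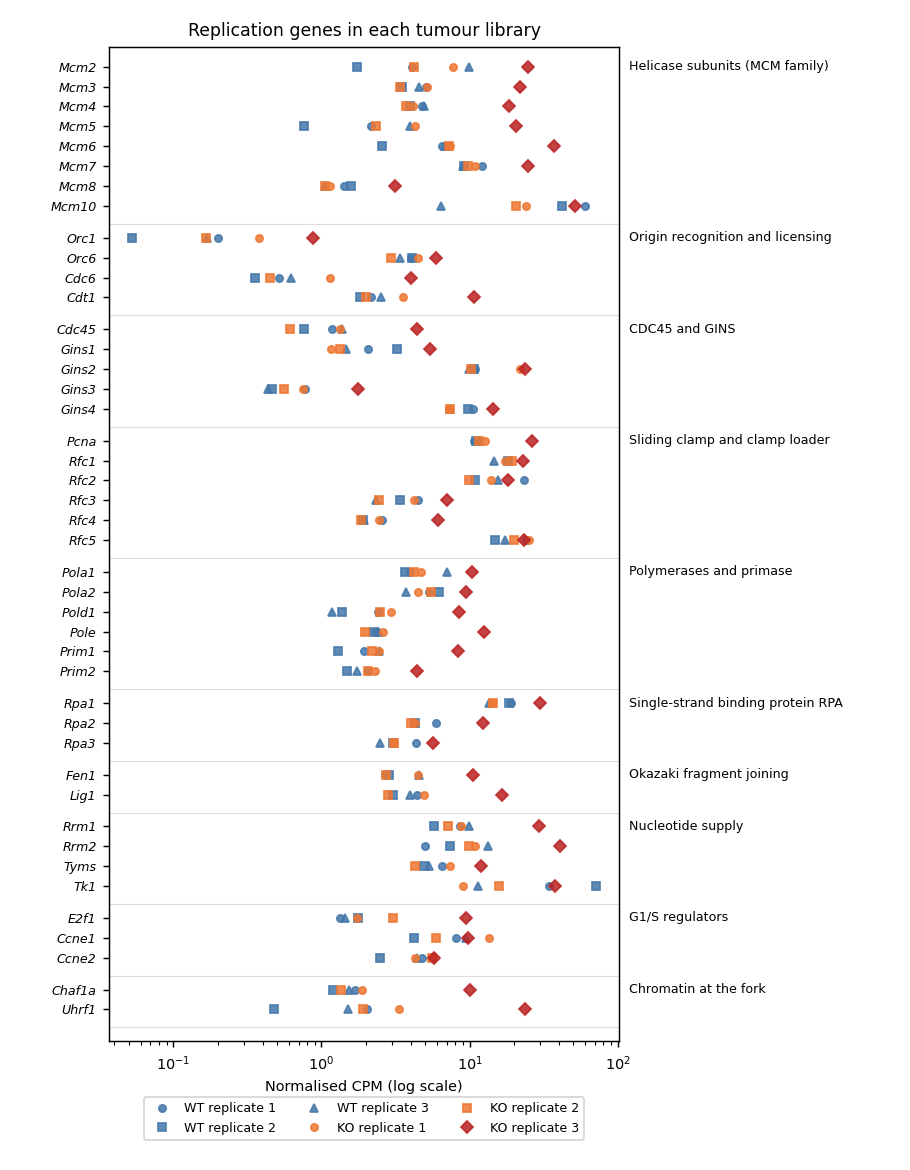
Normalised CPM (log axis) of each of the 43 genes in each library, grouped by role. Each point is 1 library, with circles, squares and triangles for replicates 1, 2 and 3 (a diamond for KO replicate 3), WT in blue and KO in orange or red. The diamond lies farthest right for 38 of the 43 genes.

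Between genotypes, 0 of the 43 genes passed an FDR of 0.05 in edgeR's quasi-likelihood test, and 0 of all 18359 genes did (0%). The smallest FDR was 0.9997 among the 43 genes and 0.407 among all genes. At an unadjusted p under 0.05 there were 4 of the 43, all higher in KO (Uhrf1, Pold1, E2f1 and Gins2), where 1.6% of all genes were higher in KO at that level. DESeq2 also called 0 of the 43 genes (smallest adjusted p = 0.193), although 62 genes of the 19548 it adjusted passed (0.317%). It placed 12 of the 43 at an unadjusted p under 0.05, against 3.88% of all genes it tested. With limma voom, 0 genes were called and 0 of the 43 were at that level, where 638 of all genes were.

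The direction was nevertheless shared by most of these genes. Of the 43, 40 had a positive log2 fold change (KO minus WT), against 48.2% of all genes tested. Their median was 0.73, against -0.01 over all genes, and 15 exceeded 1. Without KO replicate 3 the median was 0.06, 25 of the 43 were positive against 47.9% of all genes, 15 changed sign and 0 reached an unadjusted p under 0.05. The share of all genes that exceeded 1, and the shares that changed sign or reached that p without KO replicate 3, are not given here. The genotypes did not overlap for 3 of the 43 genes, all higher in KO (Mcm6, Pold1 and Prim2), where 4.15% of all genes were free of overlap and higher in KO. None of the 43 was lower in KO without overlap, where 3.96% of all genes were. The margins of those 3 were narrow: the lowest KO and the highest WT library differed by 7.28 against 6.80 CPM for Mcm6, 2.49 against 2.39 for Pold1 and 2.07 against 2.05 for Prim2.

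**Figure D2:**
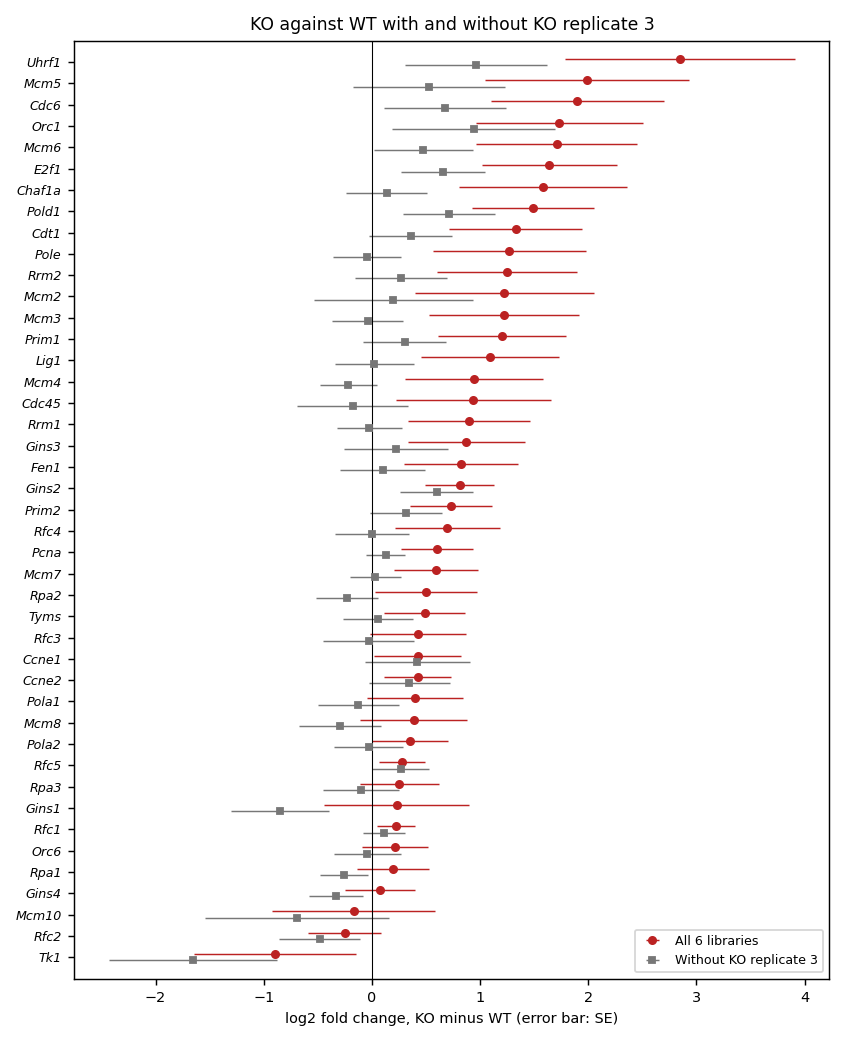
Log2 fold change (KO minus WT, x axis) of each of the 43 genes with all 6 libraries (red circles) and without KO replicate 3 (grey squares). Bars are standard errors derived from the log2 fold change and the F statistic of the edgeR test. The median was 0.73 with all libraries and 0.06 without KO replicate 3.

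Many replication genes are known targets of E2F factors, which bind short sequences near the start of transcription. Promoter sequence was matched by symbol for 35 of the 43 genes (RefSeq, GRCm38.p6). In the 250 bases upstream of an annotated start, 9 of the 35 held one of the E2F-type motifs TTTCCCGC, TTTGGCGC, TTTCGCGC or TTTGCCGC on either strand (25.7%), against 2.16% of the 27025 promoters in that table. With 50 bases downstream added these became 14 of 35 (40%) and 2.61%. CCAAT, another motif common in cell cycle promoters, was present in 65.7% of the 35 and 37.5% of all. The following 6 stretches are shown because they carry such motifs and belong to those 6 of the 9 genes with the smallest unadjusted p in the edgeR test. The same 6 had the highest excess in KO replicate 3 and are listed in the order of that excess. The 3 not shown, Mcm7, Pola1 and Rfc3, had the smallest excess, at 2.55, 2.47 and 2.07 times the median of the other 5 libraries. Each reads 5′ to 3′ on the gene's own strand, with the motifs and their reverse complements in capitals and up to 40 bases on either side. The motifs overlap in Mcm5 and in the first capitals of Mcm6.
Uhrf1 (chr17:56304088-56304175, plus strand, upstream of the downstream one of its annotated starts): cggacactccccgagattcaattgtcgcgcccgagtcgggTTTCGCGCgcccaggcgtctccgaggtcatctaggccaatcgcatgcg
Mcm5 (chr8:75109316-75109407, plus strand): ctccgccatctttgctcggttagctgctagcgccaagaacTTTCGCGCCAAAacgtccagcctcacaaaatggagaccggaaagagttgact
Cdc6 (chr11:98907973-98908060, plus strand): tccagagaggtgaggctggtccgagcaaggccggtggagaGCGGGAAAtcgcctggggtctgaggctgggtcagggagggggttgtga
Mcm6 (chr1:128359706-128359855, minus strand): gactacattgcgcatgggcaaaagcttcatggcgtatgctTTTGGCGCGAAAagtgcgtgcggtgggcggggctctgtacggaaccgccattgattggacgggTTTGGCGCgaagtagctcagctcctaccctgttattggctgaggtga
Orc1 (chr4:108579387-108579453, plus strand): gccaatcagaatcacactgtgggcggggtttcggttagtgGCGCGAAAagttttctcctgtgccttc
Gins3 (chr8:95633478-95633558, plus strand): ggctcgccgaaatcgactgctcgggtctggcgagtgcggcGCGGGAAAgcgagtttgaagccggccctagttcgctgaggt

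As a description of these letters only, the level in KO replicate 3 relative to the median of the other 5 libraries had a median of 5.22 over the 9 genes with an E2F-type motif upstream (range 2.07 to 12.5). Over the 26 promoters without one it was 3.02 (range 1.17 to 6.54). With 50 bases downstream added, the medians were 4.52 with an E2F-type motif and 2.41 without. For CCAAT upstream they were 3.19 with the motif and 3.36 without. A motif match does not show binding, and the relation was not tested.

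The helicase subunits stood far above the other tumours in KO replicate 3, although none passed the test between genotypes. All 6 genes of the MCM2 to MCM7 ring, which unwinds DNA ahead of the fork, had a positive log2 fold change, with a median of 1.22. Each was highest in KO replicate 3, at 2.55 times (Mcm7) to 8.88 times (Mcm5) the median of the other 5 libraries. Mcm6 had 6.5, 2.55 and 6.80 CPM in WT and 7.42, 7.28 and 37.2 CPM in KO. KO replicates 1 and 2 thus sat just above the WT libraries, and KO replicate 3 at 5.01 times the next highest library. Its means were 5.28 ± 2.37 CPM in WT and 17.3 ± 17.2 CPM in KO (SD), with a log2 fold change of 1.71 ± 0.75 (SE) and an unadjusted p of 0.0580, and 0.48 ± 0.46 without KO replicate 3. Mcm5 had 2.15, 0.766 and 3.97 CPM in WT and 4.28, 2.33 and 20.7 CPM in KO, a log2 fold change of 1.98 ± 0.94. Mcm2 stood at 4.06, 1.73 and 9.91 CPM in WT and 7.77, 4.21 and 24.8 CPM in KO, so that WT replicate 3 exceeded both of the other KO libraries. Mcm3 and Mcm4 were even among the other 5 libraries, at 3.36 to 5.12 and 3.73 to 4.96 CPM, and reached 22.1 and 18.5 CPM in KO replicate 3.

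Per gene length the ring subunits were most even in the tumour where they were highest. In deposited RPKM, the ratio of the highest to the lowest of the 6 subunits was 4.38, 9.20 and 2.54 in WT and 2.13, 3.25 and 1.54 in KO. KO replicate 3 spanned 4.93 RPKM (Mcm4) to 7.62 RPKM (Mcm6), while WT replicate 2 spanned 0.189 RPKM (Mcm5) to 1.74 RPKM (Mcm7). Mcm7 led in 4 of the other 5 libraries and was second lowest in KO replicate 3. Mcm7 shares bases with Cops6 and Ap4m1 on the opposite strand. No source used here states whether counting was stranded, and reads of such pairs may have been assigned to either gene.

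**Figure D3:**
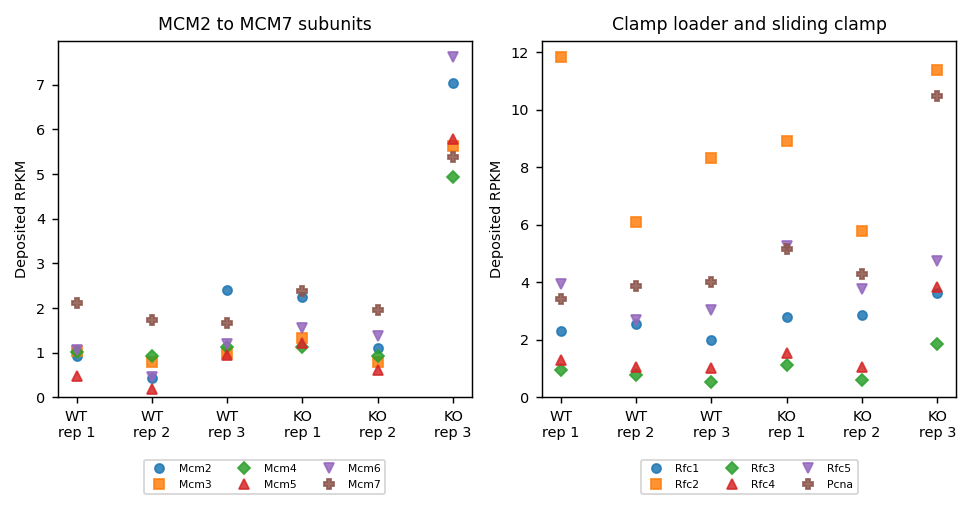
Deposited RPKM (y axis) of the MCM2 to MCM7 subunits (left) and of the RFC clamp loader subunits with Pcna (right) in each library (x axis), 1 symbol per gene. In KO replicate 3 all 6 MCM subunits lay between 4.93 and 7.62 RPKM, while among the loader subunits Rfc2 was highest and Rfc3 lowest in every library.

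Outside the ring, Mcm8 was also highest in KO replicate 3 and Mcm10 was not. Mcm8, a helicase paralogue used in recombination, had 1.06 to 1.59 CPM in the other 5 libraries and 3.11 CPM in KO replicate 3. Mcm10, which helps to activate the loaded helicase, had 59.9, 41.8 and 6.37 CPM in WT and 24.1, 20.6 and 51.5 CPM in KO. Its highest library was WT replicate 1 and its lowest WT replicate 3, a 9.39-fold range within WT that enclosed all KO libraries. Its log2 fold change was -0.17 ± 0.75.

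Among the licensing factors, which mark origins and load the ring, all 4 had positive log2 fold changes with a median of 1.53. Cdc6, the ATPase that recruits the ring, had 0.513, 0.357 and 0.618 CPM in WT and 1.14, 0.451 and 3.99 CPM in KO. KO replicates 3 and 1 were above WT, and KO replicate 2 fell inside the WT range. Means were 0.496 ± 0.132 CPM in WT and 1.86 ± 1.88 CPM in KO (SD), with a log2 fold change of 1.90 ± 0.80 (SE), an unadjusted p of 0.0502 and a value of 0.68 ± 0.56 without KO replicate 3. Cdt1, the partner of CDC6 in loading, ranged from 1.81 to 3.54 CPM in the other 5 libraries and reached 10.7 CPM in KO replicate 3. Orc1, the largest subunit of the origin recognition complex, was the scarcest of the 43 genes per length, at a mean of 0.0813 RPKM and 4 to 73 reads per library. Its log2 fold change was 1.73 ± 0.77, and 0.94 ± 0.75 without KO replicate 3. Orc6, a small subunit of the same complex, was nearly even, at 4.03, 4.08 and 3.38 CPM in WT and 4.48, 2.96 and 5.91 CPM in KO. KO replicate 2 was the lowest library for it and KO replicate 3 the highest, so WT lay between them, and the log2 fold change was 0.22 ± 0.30.

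CDC45 and GINS complete the active helicase. All 5 genes were highest in KO replicate 3, at 1.96 times (Gins4) to 3.75 times (Cdc45) the median of the other libraries, and their median log2 fold change was 0.81. Gins2 had 10.9, 10.7 and 9.94 CPM in WT and 21.8, 10.2 and 23.5 CPM in KO. It differed from the other members in that KO replicate 1 was high as well, while KO replicate 2 was inside the WT range. Means were 10.5 ± 0.526 CPM in WT and 18.5 ± 7.24 CPM in KO (SD), with a log2 fold change of 0.81 ± 0.32 (SE), an unadjusted p of 0.0389 and a value of 0.60 ± 0.34 without KO replicate 3. Gins2 overlaps Gse1 on the opposite strand, and Gse1 had 18.9, 19.5 and 18.2 CPM in WT and 37.6, 20.9 and 35.7 CPM in KO, high in the same KO libraries. Whether reads of Gse1 enter the Gins2 count was not tested. Gins4 had 10.5, 9.78 and 7.35 CPM in WT and 7.32, 7.33 and 14.4 CPM in KO, a log2 fold change of 0.07 ± 0.32. KO replicates 1 and 2 were its lowest libraries and KO replicate 3 its highest. Gins1 likewise had a log2 fold change of 0.23 ± 0.67 with all libraries and -0.85 ± 0.46 without KO replicate 3. The 4 GINS subunits, which form a complex with 1 copy of each, were uneven per length: Gins4 was 14.3 to 37.4 times Gins3 in deposited RPKM across the libraries.

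Of the role groups with more than 3 genes, the clamp and its loader had the smallest excess in KO replicate 3. Their median log2 fold change was 0.35 and KO replicate 3 stood at a median of 1.69 times the other libraries, against 5.16 times for the MCM2 to MCM7 ring. Pcna, the sliding clamp, had 10.7, 10.97 and 11.7 CPM in WT and 12.7, 11.6 and 26.4 CPM in KO. The other 5 libraries differed by 1.19-fold, the narrowest range of the 43 genes, and KO replicate 3 was 2.07 times the next. Its means were 11.1 ± 0.542 CPM in WT and 16.9 ± 8.23 CPM in KO (SD), a log2 fold change of 0.60 ± 0.33 (SE) and an unadjusted p of 0.114. Rfc2 was the most abundant of the 43 genes per length, at a mean of 8.72 RPKM. It had 23.4, 10.9 and 15.5 CPM in WT and 13.9, 9.89 and 18.1 CPM in KO. WT replicate 1 was highest and the genotypes overlapped throughout, with a log2 fold change of -0.25 ± 0.34. Rfc1 and Rfc5 varied little, and Rfc5 was highest in KO replicate 1 (25.3 CPM) rather than KO replicate 3 (23.1 CPM). Rfc5 overlaps Wsb2, which was also highest in KO replicate 1. Rfc3 and Rfc4 reached 7.03 and 6.14 CPM in KO replicate 3, against at most 4.48 and 2.58 CPM elsewhere.

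All 6 polymerase and primase genes had positive log2 fold changes, with a median of 0.97, and all were highest in KO replicate 3. Pold1, the catalytic subunit of lagging-strand polymerase delta, had 2.39, 1.37 and 1.18 CPM in WT and 2.93, 2.49 and 8.48 CPM in KO. Every KO library was above every WT library. Means were 1.65 ± 0.651 CPM in WT and 4.63 ± 3.34 CPM in KO (SD), with a log2 fold change of 1.49 ± 0.56 (SE), an unadjusted p of 0.0350 and a value of 0.71 ± 0.42 without KO replicate 3. Pole, the catalytic subunit of leading-strand polymerase epsilon, was even in the other 5 libraries at 1.96 to 2.58 CPM and reached 12.4 CPM in KO replicate 3. Its log2 fold change of 1.27 ± 0.71 was -0.05 ± 0.31 without that library. The primase subunits Prim1 and Prim2, which make the RNA primers, had 1.21 ± 0.59 and 0.73 ± 0.38, both 0.30 to 0.31 without KO replicate 3. Pola2, the accessory subunit of polymerase alpha, had 5.32, 6.22 and 3.70 CPM in WT and 4.49, 5.46 and 9.52 CPM in KO. KO replicates 1 and 2 lay inside the WT range. The log2 fold change of Pola2 was 0.35 ± 0.35 and that of the catalytic subunit Pola1 0.40 ± 0.44.

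The 3 RPA genes, whose product coats single-stranded DNA, stood above all other libraries in KO replicate 3. Rpa1 had 18.9, 18.6 and 13.6 CPM in WT and 14.1, 14.5 and 30.1 CPM in KO. Rpa2 had 5.96, 4.31 and 4.29 CPM in WT and 4.26, 4.04 and 12.3 CPM in KO. For both, KO replicates 1 and 2 were at or near the bottom of the 6 libraries and KO replicate 3 at the top. Log2 fold changes were 0.20 ± 0.34 for Rpa1, 0.50 ± 0.48 for Rpa2 and 0.25 ± 0.36 for Rpa3, and without KO replicate 3 they were -0.26, -0.23 and -0.10. In deposited RPKM the 3 subunits lay within 1.31-fold of each other in KO replicate 3 and within 1.70-fold to 2.32-fold in the other libraries.

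Fen1 and Lig1 trim and join Okazaki fragments. Fen1 had 2.67, 2.84 and 4.52 CPM in WT and 4.46, 2.71 and 10.6 CPM in KO, and Lig1 had 4.45, 3.03 and 3.97 CPM in WT and 4.95, 2.80 and 16.6 CPM in KO. Both were highest in KO replicate 3. For Fen1 the other KO libraries lay inside the WT range, and for Lig1 KO replicate 1 lay just above it and KO replicate 2 below. Log2 fold changes were 0.82 ± 0.53 for Fen1 and 1.09 ± 0.64 for Lig1, and 0.10 and 0.02 without KO replicate 3. Fen1 lies opposite the antisense gene Gm10143, whose CPM were almost the same as its own in every library, from 2.68 against 2.67 in WT replicate 1 to 10.3 against 10.6 in KO replicate 3. With the counting strand unstated, reads of the 2 genes cannot be told apart.

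Among the nucleotide supply genes, Rrm1, Rrm2 and Tyms were highest in KO replicate 3 and Tk1, whose count may hold reads of an overlapping gene, was not. Rrm2, the regulated subunit of ribonucleotide reductase, had 5.02, 7.40 and 13.4 CPM in WT and 10.8, 9.86 and 40.6 CPM in KO. KO replicate 3 was 3.04 times the next library, WT replicate 3. Means were 8.59 ± 4.29 CPM in WT and 20.4 ± 17.5 CPM in KO (SD), a log2 fold change of 1.25 ± 0.64 (SE) and an unadjusted p of 0.0961, with 0.27 ± 0.43 without KO replicate 3. Its partner Rrm1 reached 29.3 CPM in KO replicate 3 against 5.79 to 9.88 CPM elsewhere, and thymidylate synthase (Tyms) reached 11.8 CPM against 4.28 to 7.36 CPM. Tk1, the cytosolic thymidine kinase of the salvage pathway, had 34.3, 71.0 and 11.4 CPM in WT and 8.96, 15.7 and 38.01 CPM in KO. WT replicate 2 was highest, KO replicate 1 lowest, and KO replicate 3 second. Its log2 fold change was -0.90 ± 0.75 (unadjusted p of 0.271), and -1.65 ± 0.78 without KO replicate 3, the only one of the 43 to exceed 1 in size in that fit. Without WT replicate 2 it was -0.13.

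Tk1 shares bases with Afmid, an enzyme of tryptophan breakdown, on the opposite strand. Afmid had 140.8, 239.4 and 48.6 CPM in WT and 24.0, 75.2 and 97.1 CPM in KO. Both genes were highest in WT replicate 2 and lowest in KO replicate 1, and Tk1 was 0.210 to 0.391 times Afmid in all 6 libraries. The part of Afmid reads in the Tk1 count was not tested.

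**Figure D4:**
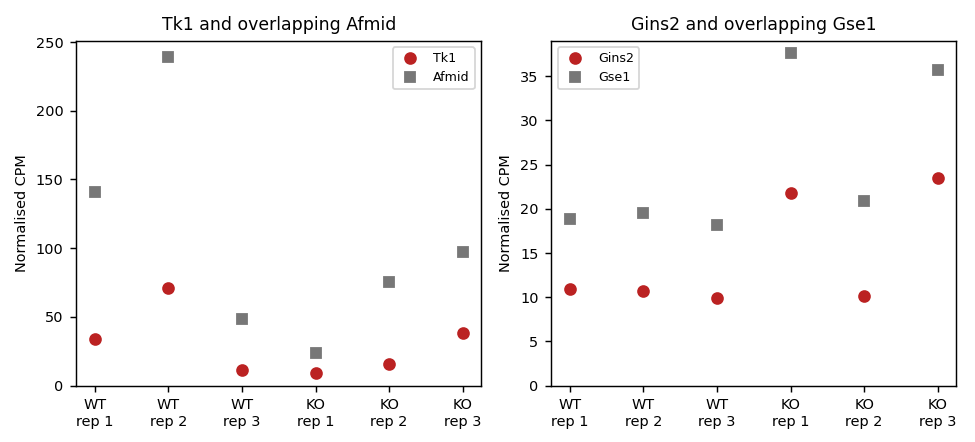
Normalised CPM (y axis, from 0) in each library (x axis) of Tk1 with the overlapping gene Afmid (left) and of Gins2 with the overlapping gene Gse1 (right). Tk1 and Afmid both peaked in WT replicate 2, and Gins2 and Gse1 were both high in KO replicates 1 and 3.

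In all, 11 of the 43 genes shared bases with another gene of at least 1 CPM. Besides the pairs above these were Cdt1, Cdc45, Rfc4, Ccne2, Chaf1a and Lig1. Without the 11, the other 32 genes had a median log2 fold change of 0.67, 30 were positive and 29 were highest in KO replicate 3. Of the genes outside the 43 that are named below, Mtbp, Ssrp1, Ccnd1, Cdk4, E2f8, Orc2, Orc4 and Orc5 also shared bases with such a gene. The part of the partners' reads in those counts was not tested.

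Among the regulators of S-phase entry, E2f1, an activating E2F factor, had 1.34, 1.76 and 1.45 CPM in WT and 1.73, 3.04 and 9.44 CPM in KO. KO replicates 2 and 3 were above WT and KO replicate 1 was just under the highest WT library. Means were 1.52 ± 0.216 CPM in WT and 4.73 ± 4.12 CPM in KO (SD), with a log2 fold change of 1.64 ± 0.63 (SE), an unadjusted p of 0.0365 and a value of 0.66 ± 0.39 without KO replicate 3. The cyclin E genes did not share the pattern of KO replicate 3. Ccne1 had 8.05, 4.23 and 9.52 CPM in WT and 13.5, 5.97 and 9.79 CPM in KO, highest in KO replicate 1. Ccne2 had 4.76, 2.48 and 4.43 CPM in WT and 4.27, 5.61 and 5.76 CPM in KO. Log2 fold changes were 0.42 ± 0.40 and 0.42 ± 0.31, and KO replicate 3 exceeded the median of the other libraries by 1.22-fold for Ccne1 and 1.30-fold for Ccne2.

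Of the role groups, the chromatin factors had the highest excess in KO replicate 3. Uhrf1, which brings the maintenance methyltransferase to newly copied DNA, had 2.02, 0.476 and 1.52 CPM in WT and 3.31, 1.90 and 23.7 CPM in KO. KO replicate 3 was 7.16 times the next library and 12.5 times the median of the others, KO replicate 1 was above WT and KO replicate 2 inside its range. Means were 1.34 ± 0.786 CPM in WT and 9.65 ± 12.2 CPM in KO (SD), with a log2 fold change of 2.85 ± 1.06 (SE), the largest of the 43, and an unadjusted p of 0.0332, the smallest. Without KO replicate 3 it was 0.96 ± 0.65. Chaf1a, the large subunit of the histone chaperone CAF-1, had 1.19 to 1.88 CPM in the other 5 libraries and 10 CPM in KO replicate 3, a log2 fold change of 1.58 ± 0.78 that was 0.14 ± 0.37 without that library.

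Over the 43 genes, KO replicate 3 was more than 2 times the median of the other libraries for 34 and more than 4 times for 14. It was at least 2 times the highest other library for 24. Its ratio to the median of the other libraries had a median of 3.18 over the 43 genes and 0.997 over all genes tested. The shares of all genes past these multiples are not given here. The other 5 libraries lay within 3-fold of each other for 35 of the 43 genes. The 5 genes not highest in KO replicate 3 were Mcm10 and Rfc2 (WT replicate 1), Tk1 (WT replicate 2), and Rfc5 and Ccne1 (KO replicate 1). WT replicate 2 was the lowest library for 15 of the 43, WT replicate 3 for 11, KO replicate 2 for 10 and KO replicate 3 for 0. Of all 18359 genes tested, these libraries were lowest for 3673, 4263, 1930 and 2767, in the same order.

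Further genes of DNA replication, outside the 43, were also highest in KO replicate 3, by a smaller margin. Of 38, 0 passed FDR 0.05 in edgeR, 30 had a positive log2 fold change (median 0.39, against 48.2% of all genes positive) and 30 were highest in KO replicate 3 (against 15.5%), and without it 21 were positive (median 0.08). At an unadjusted p under 0.05 there were 2, both higher in KO, where 1.6% of all genes were. These were Mtbp, a partner of the origin-firing factor treslin, and Dscc1, a subunit of the loader used in sister chromatid cohesion. Mtbp had 1.77, 1.89 and 1.88 CPM in WT and 3.67, 2.84 and 4.17 CPM in KO. All 3 KO libraries lay above all 3 WT libraries, and the log2 fold change of 0.95 ± 0.26 (unadjusted p of 0.00933) was 0.82 ± 0.30 without KO replicate 3. Mtbp shares bases with Mrpl13, and the part of Mrpl13 reads in the Mtbp count was not tested. Dscc1 stayed under 1 CPM in every library, with 2.03 ± 0.71 and 1.12 ± 0.61 without KO replicate 3. Topbp1, which joins origin firing to checkpoint signalling, had 0.65 ± 0.31, and the histone chaperone subunit Ssrp1 had 0.26 ± 0.24.

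Mitosis genes were also high in KO replicate 3, but not in that tumour alone. Of 26, 0 passed FDR 0.05 in edgeR and 0 had an unadjusted p under 0.05. A positive log2 fold change was found for 24 (median 0.67, against 48.2% of all genes positive). KO replicate 3 was the highest library for 22 (against 15.5% of all genes). It stood at a median of 3.94 times the median of the other 5 libraries, against 3.18 times for the 43 replication genes. The geometric mean of the mitosis genes was 1.20, 0.798 and 3.59 CPM in WT and 2.83, 1.00 and 4.99 CPM in KO, so WT replicate 3 and KO replicate 1 were high as well. Relative to the geometric mean of the 43 replication genes this was 0.279, 0.251 and 0.960 in WT and 0.620, 0.281 and 0.425 in KO. WT replicate 3 thus had the highest ratio, with mitosis genes second only to KO replicate 3 and replication genes in the middle of the other 5 libraries. The median log2 fold change was 1.63 without WT replicate 3 and 0.02 without KO replicate 3. Aurkb, a kinase of chromosome segregation, had 0.351, 0.343 and 1.28 CPM in WT and 1.30, 0.391 and 3.34 CPM in KO, with a log2 fold change of 1.34 ± 0.88. The centromeric histone gene Cenpa had 0.72 ± 0.50, the kinetochore motor Cenpe 1.05 ± 0.78 and securin (Pttg1) 0.23 ± 0.65.

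**Figure D5:**
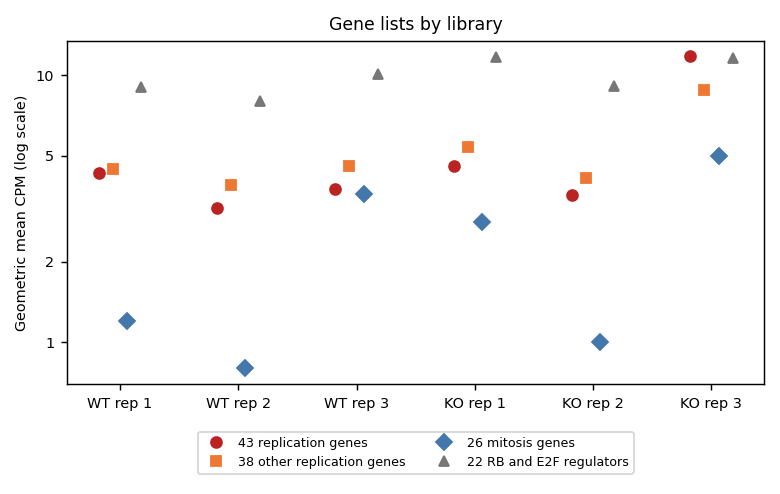
Geometric mean CPM (log axis) of the 43 replication genes, 38 other replication genes, 26 mitosis genes and 22 RB and E2F regulators in each library (x axis). The replication genes stood at 11.8 CPM in KO replicate 3 and at 3.19 to 4.56 CPM elsewhere, while the mitosis genes were also high in WT replicate 3 and KO replicate 1.

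Regulators of the RB and E2F axis, which governs entry into S phase, had no shared direction. Of 22, 0 passed FDR 0.05 in edgeR and 12 had a positive log2 fold change (median 0.01, against 48.2% of all genes positive). KO replicate 3 was the highest library for 5 (against 15.5% of all genes). Log2 fold changes ran from -0.89 to 2.42, and the 3 that exceeded 1 in size were all positive (Cdkn2a, E2f2 and Ccnd1). E2f2, another activating E2F gene, had 1.26, 0.502 and 1.09 CPM in WT and 2.75, 2.29 and 4.09 CPM in KO. All KO libraries exceeded all WT libraries, with a log2 fold change of 1.67 ± 0.44 (unadjusted p of 0.00749) and 1.40 ± 0.48 without KO replicate 3. Ccnd1 (cyclin D1) had 103.2, 17.8 and 100.5 CPM in WT and 207.8, 147.8 and 181.3 CPM in KO, also without overlap, and 1.28 ± 0.61. WT replicate 2 was low for it, and its log2 fold change was 0.81 without that library and 1.27 without KO replicate 3. The p16 and ARF gene Cdkn2a had 0.200, 0.119 and 1.05 CPM in WT and 6.01, 0.692 and 0.628 CPM in KO, high in KO replicate 1 alone, and its log2 fold change of 2.42 ± 1.21 was 0.54 without that library. Cdk4, the kinase partner of cyclin D, had 0.01 ± 0.35.

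Marker genes of the cell types that a liver tumour can hold were read beside the replication genes. KO replicate 3 was the highest library for 0 of 9 T and NK cell, 0 of 7 B and plasma cell, 0 of 7 neutrophil, 0 of 8 endothelial, 0 of 9 stellate cell and 1 of 9 macrophage markers. It was highest for 1 of 10 hepatocyte, 1 of 6 cholangiocyte and 2 of 6 erythroid markers. No list thus had most of its markers highest in the tumour where the replication genes were high. Summed T and NK cell markers were 4.12 to 8.40 CPM in WT, 2.46 to 3.98 CPM in KO and 3.05 CPM in KO replicate 3. B and plasma cell markers summed to 8.22 to 61.4 CPM in WT and 7.14 to 20.7 CPM in KO, lowest in KO replicate 3. Neutrophil markers summed to 10.9 to 39.5 CPM in WT and 5.33 to 9.36 CPM in KO. Each of these 3 leukocyte sums in KO replicate 3 lay below the lowest WT library. For T and NK cell and neutrophil markers KO replicates 1 and 2 did so too, and KO replicate 2 was lowest. Endothelial markers summed to 255 to 308 CPM in WT and 182 to 240 CPM in KO, lowest in KO replicate 3, and macrophage markers to 92.0 to 322 CPM and 76.6 to 123.5 CPM. Stellate cell markers summed to 118 to 296 CPM in WT and 256 to 466 CPM in KO. Erythroid markers summed to 83.7 to 138 CPM in WT and 90.5 to 168 CPM in KO, highest in KO replicate 3, and hepatocyte markers to 159000 to 221300 CPM and 156900 to 183300 CPM. The cholangiocyte list, at 80.0, 39.0 and 480.8 CPM in WT and 434.2, 75.4 and 471.6 CPM in KO, followed the mitosis genes in being high in WT replicate 3 and KO replicates 1 and 3. Nearly all of it was Spp1 (osteopontin), at 465.0 CPM in KO replicate 3, where the bile duct markers Krt19 and Epcam were at 0.229 and 0.205 CPM and Cftr at 0. No marker was at 0 in all libraries. The part of any of these cell types in the replication or mitosis values was not tested.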

How the data were processed

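The authors deposited 1 table holding raw read counts and RPKM per gene for 6 libraries, with a gene length and coordinates. Per the submitters' processing notes, the tools were bcl2fastq, HTSeq and TopHat2 2.0.6, with no role stated. Those notes list GRCh37 and hg19, which are human builds, but the table's identifiers are mouse Ensembl identifiers. Of 42462 shared with GENCODE M21, 84.2% had the same start, and coordinates were read as GRCm38. Whether counting was stranded is not given in these sources. The deposited RPKM values imply library totals 12.6 to 19.0% above the summed gene counts, and were used only to compare levels between genes.

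Libraries were grouped by their titles. The test on the deposited counts was that of edgeR 4.0.16 under R 4.3.3 (filterByExpr, TMM, robust quasi-likelihood test, two-sided, Benjamini-Hochberg adjustment over the 18359 genes kept). All 43 members passed this filter; Gli1 did not and was added back. Each SE of a log2 fold change is its size divided by the square root of the F statistic of that test. The SE therefore carries no evidence beyond the test itself. A geometric mean is over genes within a library. DESeq2 1.42.0 and limma 3.58.1 (voom) were alternatives, with others of filter, scaling, replicate block, a covariate for the number opening the sample description, and leaving out each library. To see whether the replicate numbers pair the libraries, each gene's log CPM was taken as its deviation from the mean of its genotype. These deviations correlated at -0.285, 0.18 and -0.343 between same-numbered libraries of the 2 genotypes. Between differently numbered libraries they correlated at -0.365 to 0.513. The numbers were therefore not taken to pair the libraries. Values in every library are given for each role group's member of smallest p and of highest mean RPKM and for members at an unadjusted p under 0.05; further members, Afmid, Gse1, Gm10143 and Spp1 were chosen after their values were seen. Of 200 list entries, 200 matched, 2 of them through the GENCODE name. The members and lists were chosen with earlier results of these data known.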

Additional observations from a re-analysis of the deposited data

How the results depend on the processing

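The count of genes past FDR 0.05 was 0 under each alternative run except DESeq2, which called 62 genes, none of them among the 43. The median log2 fold change of the 43 genes ranged from 0.0577 (without KO replicate 3) to 1.01 (without KO replicate 2) when a library was left out, and from 0.45 to 0.75 under the other settings. Positive genes ranged from 25 (without KO replicate 3) to 42 of 43 on leaving out a library. Genes without overlap between genotypes then ranged from 4 to 18 (without KO replicate 2), where fewer libraries have to lie apart. The share of all genes without overlap in these smaller sets is not given here, so no excess is read from those counts. Under the other settings the count without overlap was 2 to 4. Without KO replicate 2, 16 of the 43 and 566 of all genes reached an unadjusted p under 0.05. With a replicate block the median was 0.51, 40 were positive and 0 passed. The block changed no call. Description numbers lay close together for replicate 1 (1759 in WT, 1767 in KO) and replicate 2 (4204 in WT, 4206 in KO). For replicate 3 they lay apart (3981 in WT, 1647 in KO). WT replicate 1 and KO replicates 1 and 3 thus had numbers under 2000, and the other libraries had numbers above 3900. With the description-number covariate the median was 0.45 and 38 were positive. What these numbers stand for is not given here. Values of opposite direction numbered 20 of 431 over 31 named genes, 15 of them on leaving out a library, and none passed the threshold. Mcm10 became 0.24 with voom and 0.0183 with the replicate block, Gins4 became -0.0207 with voom and -0.0878 with the description-number covariate, and Cdk4 became -0.17 with that covariate. On leaving out a library the log2 fold change ran from -0.69 to 0.42 for Mcm10, -0.0429 to 0.45 for Orc6, -0.33 to 0.25 for Gins4, -0.48 to 0.0828 for Rfc2, -0.0295 to 0.57 for Pola2, -0.26 to 0.40 for Rpa1, -0.23 to 0.78 for Rpa2, -1.65 to -0.13 for Tk1, -0.24 to 0.94 for Pttg1 and -0.23 to 0.46 for Cdk4. The cause of these moves was not tested. Depth limited the scarcest gene, Orc1, at 4 reads in its lowest library, while 34 of the 43 had at least 100 reads in every library.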

Other observations

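Subunits of the same complexes that lie outside the 43 genes did not all share the excess in KO replicate 3. These genes came from the list of 38 other replication genes and were chosen for naming after their values were seen. The remaining origin recognition subunits were even among the tumours. KO replicate 3 stood at 0.754 times (Orc5) to 1.18 times (Orc2) the median of the other 5 libraries over Orc2, Orc3, Orc4 and Orc5, against 5.22 times for Orc1. The small polymerase subunits Pold4 and Pole4 stood at 0.478 and 0.986 times, and the MCM-binding protein gene Mcmbp at 1.03 times. Pold4 was highest in KO replicate 1, at 67.9 CPM. At the other end, Clspn (claspin, a checkpoint adaptor at the fork) had 0.251, 0.238 and 0.562 CPM in WT and 0.674, 0.226 and 3.8 CPM in KO, which put KO replicate 3 at 15.2 times the median of the others. Ticrr (treslin, an origin-firing factor) stood at 7.52 times that median and the histone chaperone gene Asf1b at 5.57 times.

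E2f8, a repressive E2F gene, was distributed like Mcm10 and Tk1 rather than like the ring subunits. It had 7.68, 9.95 and 0.899 CPM in WT and 1.27, 2.23 and 7.78 CPM in KO, so WT replicates 1 and 2 and KO replicate 3 were high and WT replicate 3 lowest. Its log2 fold change was -0.72 ± 0.96 (SE), and it too was chosen after its values were seen. E2f8 shares bases with Gm2788, and Tk1 with Afmid, which had the same highest and lowest library as Tk1. The part of such reads in either count, and any relation of E2f8 to Mcm10 and Tk1, was not tested.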
